A study of Arabidopsis thaliana with 3 samples.

Results

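The photosystem I antenna of Arabidopsis thaliana is encoded by 6 nuclear genes, LHCA1 (AT3G54890), LHCA2 (AT3G61470), LHCA3 (AT1G61520), LHCA4 (AT3G47470), LHCA5 (AT1G45474) and LHCA6 (AT1G19150), which were taken by locus. All 6 were found among the 27374 loci of the deposited tables, in 12 listed transcripts whose values were summed per locus. The data came from 1 group of 3 RNA-seq libraries, made from whole wild-type Col-0 seedlings that were 9 days old and had been kept on MS plates at 23 °C with 16 h of light per day. Ribosomal RNA was depleted from total RNA before strand-specific libraries were prepared. There was no mutant or treated sample, so genes were compared with each other within libraries, and the libraries with each other. Whole seedlings mix green and non-green organs, and the hour of harvest is not given in the sources used here. Values were read as FPKM, fragments scaled by transcript length and library size, a unit inferred from the tools named and from the values. The comparison of levels between different genes rests on that reading.

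Light-harvesting proteins of photosystem I bind chlorophyll and carotenoids, absorb light and pass the energy to the reaction centre. LHCA1 to LHCA4 form a crescent on one side of the photosystem, built from a dimer of LHCA1 with LHCA4 and a dimer of LHCA2 with LHCA3, and are called the core antenna here. LHCA5 and LHCA6 are known as minor proteins that join photosystem I to the chloroplast NADH dehydrogenase-like (NDH) complex, which returns electrons to the plastoquinone pool in cyclic electron flow. In the supercomplex of both, LHCA5 and LHCA6 take places in the crescent that core proteins hold elsewhere.

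The 6 genes belong to 1 protein family, and their coding sequences show where the core members differ in kind. The chlorophyll ligand of the first membrane helix is a histidine in most light-harvesting proteins, whereas LHCA3 and LHCA4 are known for an asparagine there and for absorbing far-red light. The stretch of 27 coding bases around this codon was located in RefSeq TAIR10.1 by the family's conserved residues at fixed spacing. These were glutamate, arginine, alanine and methionine, with histidine or asparagine at the ligand. The search allowed no other residue at the ligand, so only the choice between histidine and asparagine is a result. The stretch is shown 5′ to 3′ for each gene, with the ligand codon in capitals.
LHCA5: gagcttgttCACtctcgtttcgctatg
LHCA6: gagcttataCATagccggtgggcaatg
LHCA1: gagctcatcCACtgtagatgggctatg
LHCA2: gagatagtcCACtgccgatgggctatg
LHCA3: gagatcatcAACggacggttcgccatg
LHCA4: gagctggtcAACggacgatgggctatg
AAC, which codes for asparagine, stands in LHCA3 and LHCA4, and CAC or CAT, which code for histidine, in the other 4 genes, LHCA5 and LHCA6 included. In TAIR10.1 the stretch of LHCA3 lies at chr1:22700625-22700651 on the plus strand and that of LHCA4 at chr3:17494235-17494261 on the minus strand, each within 1 coding exon. Those of the other genes lie at chr3:20340325-20340351 on the minus strand (LHCA1) and, on the plus strand, at chr3:22746443-22746469 (LHCA2), chr1:17179686-17179712 (LHCA5) and chr1:6613207-6613233 (LHCA6). Over the aligned bases of whole coding sequences, gaps left out, identity between pairs of members ranged from 58.9% (LHCA6 and LHCA3) to 66.3% (LHCA4 and LHCA1). LHCA5 was nearest to LHCA1 (65.9%), and LHCA6 to LHCA2 (63.5%).

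Such identity leaves few stretches that are alike at 90% or more, over 50 bases or longer. No such second copy was found elsewhere in the genome for the transcripts of LHCA1, LHCA3, LHCA4, LHCA5 and LHCA6. For LHCA2, 51.0% of the transcript had one, on chromosome 5 at the locus AT5G28450, which was listed at 0 FPKM in libraries 1 and 2 and at 0.133 FPKM in library 3. How the authors' software divided reads between LHCA2 and this locus is not known, so the LHCA2 level is less certain than the others. On the opposite strand, 53 bases of LHCA4 overlap AT3G47460, which had 2.11 FPKM on average.

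LHCA5 and LHCA6 were detected in every library, at levels far below those of the core antenna. LHCA5 had 53.3, 55.4 and 49.8 FPKM in libraries 1, 2 and 3. LHCA6 had 68.7, 70.9 and 60.2 FPKM in the same libraries. Both were highest in library 2 and lowest in library 3, and the highest LHCA5 value lay below the lowest LHCA6 value. As means, LHCA5 had 52.8 ± 2.82 FPKM and LHCA6 had 66.6 ± 5.65 FPKM (SD, n = 3). Among 26693 nuclear protein-coding loci they ranked 1629th and 1288th, so both stood in the upper part of the transcriptome in spite of their distance from the core genes.

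The 4 core genes were among the most abundant nuclear transcripts. LHCA1, the partner of LHCA4, had 3229, 2952 and 2837 FPKM in libraries 1, 2 and 3. LHCA2, the partner of LHCA3, had 3027, 2769 and 2681 FPKM. Each of the 4 was highest in library 1 and lowest in library 3, and no value of LHCA5 or LHCA6 came near them. LHCA3 had 4300, 3945 and 3845 FPKM, the highest levels of the family. LHCA4 had 3608, 3289 and 3228 FPKM. They ranked 10th (LHCA3), 12th (LHCA4), 16th (LHCA1) and 17th (LHCA2) among nuclear protein-coding loci, with coefficients of variation of 5.94% to 6.70% between libraries. The 6 genes together held 2.32%, 2.23% and 2.11% of the FPKM of all nuclear protein-coding loci in libraries 1, 2 and 3.

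**Figure D1:**
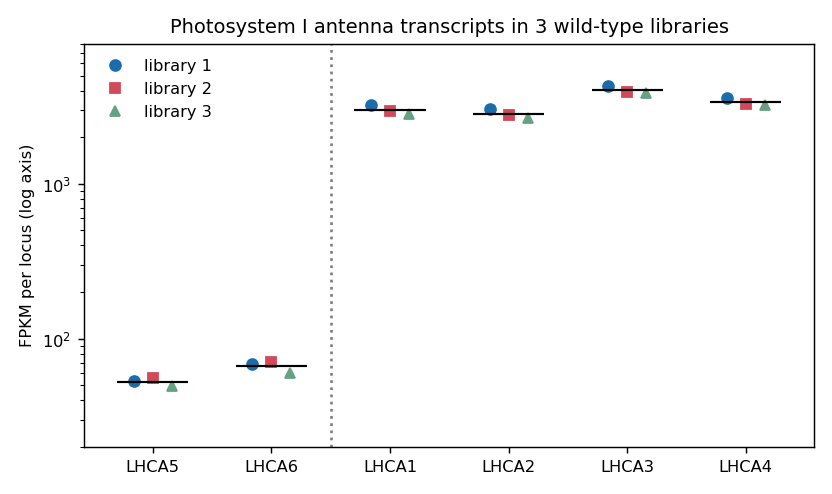
FPKM per locus (log axis) of LHCA5 and LHCA6, left of the dotted line, and of LHCA1 to LHCA4, with 1 symbol per library and a black line at the mean of 3 libraries. LHCA5 and LHCA6 lie between 49.8 and 70.9 FPKM and the core genes between 2681 and 4300 FPKM, so the sets do not overlap.

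The distance of LHCA5 and LHCA6 from the core antenna was many times the spread between libraries. LHCA5 stood at 1.51%, 1.71% and 1.58% of the mean core level in libraries 1, 2 and 3, and LHCA6 at 1.94%, 2.19% and 1.91%. Relative to the mean of LHCA1 to LHCA4, the log2(FPKM + 1) difference was -5.93 for LHCA5 (SE 0.071) and -5.60 for LHCA6 (SE 0.070), negative in 3 of 3 libraries each. The percentages above use the arithmetic mean of core FPKM, whereas the difference is taken from the mean of the core log2(FPKM + 1) values. The same holds for all later log2 differences from the core mean. LHCA5 was 60.9-fold and LHCA6 48.6-fold lower than the core mean on that log2 scale. Both passed the test, a limma fit of the log2 ratio of every locus with at least 1 FPKM on average to that mean, with Benjamini-Hochberg adjusted p under 0.05, and their p-values were too small to be given. The background of that call is high: 99.8% of the loci tested were called below the core mean, with a median distance of 8.33, so being called lower is not particular to LHCA5 and LHCA6, which were nearer to the core than the median locus. In all 8 pairs of LHCA5 or LHCA6 with a single core gene the difference passed, from -5.39 (LHCA6 against LHCA2) to -6.23 (LHCA5 against LHCA3), and no adjusted p (limma) exceeded 2.4e-133. With 3 libraries an exact two-sided sign-flip permutation test cannot go below p = 0.25, which it gave for each of the 15 pairs of members and for LHCA5 and LHCA6 against the core mean. Separate cultures or batches of seedlings are not named in the labels, so the spread between these libraries may be technical. Each SD measures that spread. The limma p-values do not measure it alone, because limma draws the SE of each ratio towards those of other loci. In whole seedlings, fewer cells that express a gene and less RNA per cell cannot be told apart.

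LHCA6 was more abundant than LHCA5. The LHCA6 level was 1.29, 1.28 and 1.21 times that of LHCA5 in libraries 1, 2 and 3. On the log2(FPKM + 1) scale LHCA6 exceeded LHCA5 by 0.33 (SE 0.070) in 3 of 3 libraries (adjusted p = 5.9e-05, limma). As in every pair of members, the lower-numbered gene was the base of the ratio, and 97.9% of all loci tested differed from LHCA5. The limma adjusted p was 0.0237 without replicate 1 and 0.00203 with the variances of both genes. With only the higher transcript of each locus in place of the sum, the difference was 0.86, because LHCA5 is listed as 2 forms and LHCA6 as 1.

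Within the core antenna the levels spanned a narrow range, and LHCA3 stood at its top. The level of the highest core gene was 1.43 ± 0.0071 times that of the lowest (SD, n = 3), LHCA3 over LHCA2 in each library. LHCA3 exceeded LHCA2, its partner in the dimer, by 0.51 (SE 0.071) on the log2(FPKM + 1) scale (adjusted p = 4.3e-13, limma). LHCA4, the next in order, differed from LHCA3 by -0.26 (SE 0.066; adjusted p = 0.000166, limma). Both carry the asparagine codon shown above, and in each of the 3 libraries these 2 genes had the 2 highest levels of the family.

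LHCA4 and LHCA1, which form the other dimer, were closer to each other. LHCA4 was 1.12, 1.11 and 1.14 times the level of LHCA1 in libraries 1, 2 and 3, a difference of 0.17 (SE 0.074) on the log2(FPKM + 1) scale with a limma adjusted p of 0.0228. This call was lost without replicate 2 (adjusted p = 0.169) and without replicate 3 (adjusted p = 0.115), as it was in other fits described with the processing. LHCA2, the lowest core gene, stood at 0.938, 0.938 and 0.945 times the level of LHCA1. That difference of -0.089 (SE 0.073; 95% interval -0.23 to 0.054) did not pass (limma adjusted p = 0.222), although LHCA2 was lower in 3 of 3 libraries and the difference had an SD of only 0.0064 between them. limma draws the SE of each ratio towards those of other loci against LHCA1, which makes it larger here than the spread of this pair.

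In order of level the family thus ran LHCA3, LHCA4, LHCA1, LHCA2, LHCA6 and LHCA5. Of its 15 pairs, 14 passed the test and 1, the neighbours LHCA2 and LHCA1, did not. Most loci pass such a test: the share called above or below was 99.9% with LHCA1 or LHCA2 as the base of the ratio, 100% (rounded) with LHCA3 or LHCA4, 97.9% with LHCA5 and 97.7% with LHCA6. By direction, 99.7% of loci were called below LHCA1 and 99.7% below LHCA2, and 99.8% below each of LHCA3 and LHCA4. Few loci were called above a core gene, 0.196% for LHCA1, 0.213% for LHCA2, 0.157% for LHCA3 and 0.190% for LHCA4. As shares of the summed FPKM of all 6 genes, LHCA5 held 0.393% ± 0.0252 and LHCA6 0.497% ± 0.0379, against 30.2% ± 0.0862 for LHCA3, 25.3% ± 0.141 for LHCA4, 22.5% ± 0.142 for LHCA1 and 21.2% ± 0.0416 for LHCA2 (SD, n = 3).

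The core genes deviated together between libraries, and LHCA5 and LHCA6 deviated in another pattern. In library 1, LHCA1 to LHCA4 lay above their own means by 0.095 to 0.105 on the log2(FPKM + 1) scale, while LHCA5 lay above its mean by 0.015 and LHCA6 by 0.048. In library 2, LHCA5 and LHCA6 lay above their means by 0.068 and 0.092, and the core genes lay at -0.024 to -0.035. In library 3 all 6 were below their means, LHCA5 at -0.082, LHCA6 at -0.14 and the core genes at -0.063 to -0.081. NDHS and NDHN, genes for NDH subunits, were also highest in library 2 and lowest in library 3, while PNSB1 and NDHL, of the same complex, were not. The share of all loci with that order was not counted, so it is not shown to be particular to LHCA5 and LHCA6. The log2 difference between 2 core genes had an SD of 0.0056 to 0.016 over the libraries, against 0.090 to 0.111 for the difference of LHCA5 or LHCA6 from a core gene. On the log2(FPKM + 1) scale LHCA5 itself had an SD of 0.076 and LHCA6 of 0.123. Over nuclear protein-coding loci within 0.5 of their levels the medians were 0.064 and 0.065, and 38.2% and 13.5% had a larger SD. Whether pairs of any low gene with a core gene spread as much was not tested.

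Abundant nuclear transcripts in general shared part of the core pattern. Of 61 nuclear protein-coding loci with a mean of at least 1000 FPKM, 80.3% were highest in library 1 and 47.5% had the order of the 4 core genes, library 1 above library 2 above library 3. Over all 17626 nuclear protein-coding loci with a mean of at least 1 FPKM, 6167 were highest in library 1 and 14.5% had that order. The summed FPKM of all transcripts was 2064646, 2000114 and 1957870 in libraries 1, 2 and 3, and 1 transcript made up 43.3% to 45.5% of it. After rescaling by median-of-ratios factors, LHCA5 and LHCA6 were still highest in library 2 (0.089 and 0.114), and the core genes still lay above their means in library 1 (0.081 to 0.091) and below them in library 3 (-0.070 to -0.089). The part of library composition in these patterns was not tested.

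**Figure D2:**
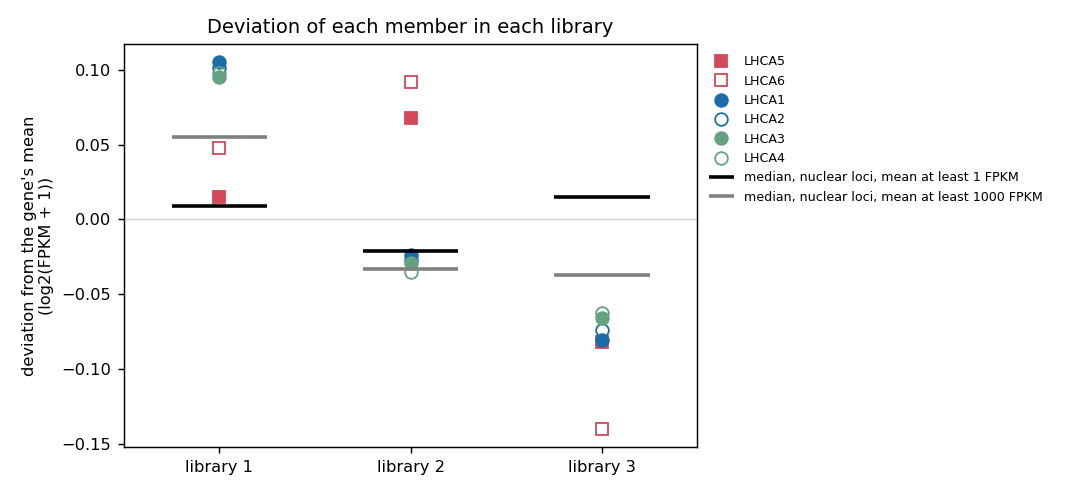
Deviation of each LHCA gene from its own mean in each library, in log2(FPKM + 1), with LHCA5 and LHCA6 as squares and the core genes as circles; black and grey bars are medians of nuclear protein-coding loci with a mean of at least 1 and at least 1000 FPKM. The core genes lie together at 0.095 to 0.105 in library 1, and LHCA5 and LHCA6 lie above them in library 2, at 0.068 and 0.092.

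The loci nearest to each member in level and library pattern were sought by the Euclidean distance in log2(FPKM + 1) over the 3 libraries, among nuclear protein-coding loci. Nearest to LHCA5 were TSB1 (distance 0.032), MOD1 (0.051) and CHL (0.051), and nearest to LHCA6 were ENODL17 (0.087), ENH1 (0.094) and HTB11 (0.096). Many loci have levels like these, so a small distance is easily found there. Nearest to LHCA1 was LHB1B1 (0.065), which encodes a photosystem II antenna protein, followed by LHCB3 (0.083) and LHCA2 (0.154). Nearest to LHCA2 was PSBO1 (0.023), a subunit of the oxygen-evolving complex, followed by LHCA1 (0.154) and PSAG (0.178). For LHCA3 the order was LHCB5 (0.093), CAB3 (0.124) and AT2G31141 (0.199), and for LHCA4 it was LHCB3 (0.219), LHB1B1 (0.236) and AT2G45180 (0.258). With 3 libraries these distances reflect level more than pattern.

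Of the core genes, LHCA2 and LHCA4 were listed with 1 transcript each, and the others were made up almost wholly of 1 form. For LHCA1, form 1 (4 exons, 726 coding bases) held 98.5%, 98.4% and 98.5% of the locus in libraries 1, 2 and 3. Forms 2, 3 and 4, with coding sequences of 624, 495 and 642 bases, had 1.14 ± 0.0572, 35.7 ± 3.92 and 9.37 ± 1.70 FPKM (SD, n = 3). For LHCA3, form 1 (3 exons) held 99.5%, 99.4% and 99.4%. LHCA3 form 2, annotated as a single exon that runs through the introns of form 1, had 21.3, 22.3 and 25.0 FPKM. Form 3 of LHCA3 had 0.690 and 0.785 FPKM in libraries 1 and 2 and was listed at 0 in library 3.

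LHCA5 was the one member with 2 substantial forms, and their split moved between libraries while the sum did not move much. Form 1 (5 exons) had 14.1, 22.9 and 12.6 FPKM in libraries 1, 2 and 3. Form 2 (6 exons) had 39.3, 32.4 and 37.2 FPKM. Library 2 thus had the highest form 1 and the lowest form 2, and form 1 made up 26.4%, 41.4% and 25.2% of the locus. Both forms hold the same 771 coding bases and differ in their ends: form 2 starts earlier and has a separate last exon. That exon lies, in TAIR10.1, within AT1G45545 on the opposite strand, which had 0.774 FPKM on average. The labels name a strand-specific kit but not whether strand was used in counting, so reads of the overlap could belong to either gene.

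The split of LHCA5 varied more than that of most loci of its kind. The share of form 1 had an SD of 9.03 percentage points over the libraries, where the median was 3.09 over 268 nuclear protein-coding loci with exactly 2 listed forms, a mean of 20 to 200 FPKM and a minor form of at least 10%. Of those loci, 7.5% had a larger SD. These limits were chosen after the LHCA5 values were seen, and the comparison is a description with no test. The division of reads between forms that share most of their bases is an estimate of the authors' software.

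**Figure D3:**
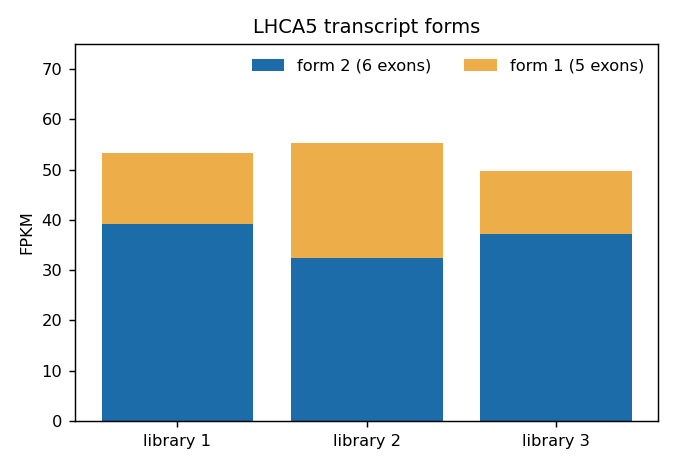
FPKM of the 2 annotated LHCA5 transcript forms in each of the 3 libraries, stacked from 0 so that the bar height is the level of the locus. The bars reach 49.8 to 55.4 FPKM, while form 1, the upper part, takes 25.2% to 41.4%.

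LHCA5 and LHCA6 had levels within the range of the nuclear genes for subunits of the NDH complex, to which their proteins attach. This was not particular to NDH genes, since both also lay within the ranges of the insertion and assembly genes described below. LHCA5 (52.8 FPKM) and LHCA6 (66.6 FPKM) lay inside the range of all 18 listed NDH genes, which ran from 9.65 to 116 FPKM with a median of 45.8. In the limma fits LHCA5 was above 11 of the 18, below 5 and not called against 2, where 89.1% of all loci tested were called below LHCA5 and 8.84% above it. LHCA6 was above 13 of the 18, below 3 and not called against 2, where 91.0% of all loci were called below LHCA6 and 6.69% above it. The median difference from the NDH genes was 0.20 for LHCA5 and 0.53 for LHCA6 on the log2(FPKM + 1) scale, against 2.40 and 2.72 over all loci tested. With only the higher transcript of each locus, LHCA5 was above 5 and below 10 of the 18, because its form 1 was then left out. Without replicate 1, LHCA5 was above 8, below 5 and not called against 5, and LHCA6 was above 11, below 2 and not called against 5.

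The NDH genes next to them in level belong to different parts of the complex. NDHS, which encodes a subunit near the ferredoxin-binding site, led the list with 116 ± 6.80 FPKM (SD, n = 3), against which LHCA5 differed by -1.12 and LHCA6 by -0.80 on the log2(FPKM + 1) scale. LHCA6 had 68.7, 70.9 and 60.2 FPKM in libraries 1, 2 and 3, against 72.3, 69.8 and 65.5 for PNSB1, of subcomplex B, and 69.4, 66.5 and 62.3 for PNSL1, of the lumenal subcomplex. LHCA6 overlapped with both, and neither difference passed, at -0.057 from PNSB1 (SE 0.104, limma adjusted p = 0.590) and 0.0090 from PNSL1 (SE 0.104, limma adjusted p = 0.932). LHCA5 had 53.3, 55.4 and 49.8 FPKM, against 53.7, 52.1 and 49.8 for NDHL, a membrane subunit, a difference of 0.026 (SE 0.071, limma adjusted p = 0.720). NDHT, a J-domain subunit, was lowest at 9.65 ± 0.138, 2.34 below LHCA5 and 2.66 below LHCA6. PNSL3 had the largest SD of the list on the log2(FPKM + 1) scale, with 13.5, 18.9 and 12.8 FPKM in libraries 1, 2 and 3. The locus AT2G04039, entered in the list without a name in the gene table, had 19.9 ± 1.57 FPKM. All 18 NDH genes lay below the mean core level, as 99.8% of all loci did.

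**Figure D4:**
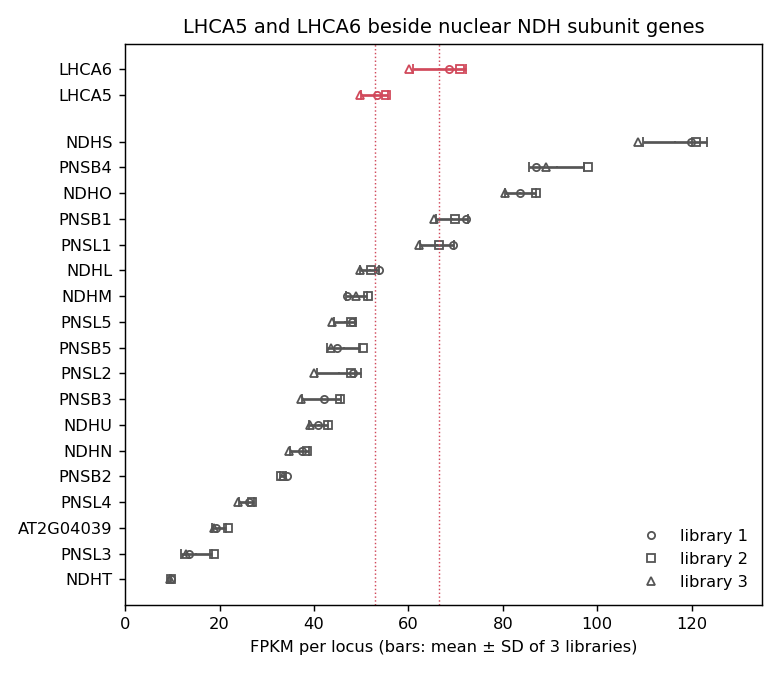
FPKM per locus of LHCA6 and LHCA5 (red, at the top; dotted lines at their means) and of 18 nuclear genes listed as NDH subunits, with a symbol per library and bars of mean ± SD over 3 libraries. LHCA5 and LHCA6 fall between NDHS at 116 FPKM and NDHT at 9.65 FPKM.

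The mean of the core antenna genes exceeded each listed nuclear gene for the photosystem I core, on which their proteins dock. The mean core level, 3309 ± 206 FPKM (SD, n = 3), was above all 12 listed subunit genes, which had a median of 1640 FPKM. Subunits D, E and H are each listed as 2 genes, whose levels were not summed. The median log2 difference was 1.00, against 8.33 over all loci, of which 99.8% were called below the core mean. The core mean was 3541, 3239 and 3148 FPKM in libraries 1, 2 and 3, against 2731, 2589 and 2659 FPKM for PSAG, the nearest of them, which encodes a subunit at the LHCA1 end of the crescent. The difference was 0.30 (SE 0.071, limma adjusted p = 2.2e-05). LHCA2, the lowest core gene, was close to PSAG in library 3, at 2681 against 2659 FPKM. The core mean exceeded PSAL (1702 ± 142 FPKM), the subunit gene with the largest SD on the log2(FPKM + 1) scale, by 0.95. It exceeded PSAE2 (PSAE-2 in the gene table), 1 of 2 genes for the stromal subunit E and the lowest of the list at 546 ± 38.9 FPKM, by 2.58. PSAK, whose protein sits at the LHCA3 end, had 1578 ± 43.5 FPKM. LHCA5 (52.8 FPKM) and LHCA6 (66.6 FPKM) lay below all 12.

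Genes that deliver and build the antenna stood far below it. The 5 genes for targeting and insertion of light-harvesting proteins had a median of 68.2 FPKM, and the core mean exceeded all 5, as it did 99.8% of all loci tested. The median log2 difference was 5.57 for these 5 genes, against 8.33 over all loci. ALB3, the insertase of the thylakoid membrane, led at 165 ± 6.46 FPKM (SD, n = 3), 4.31 below the core mean on the log2(FPKM + 1) scale. CAO, which encodes the 43-kDa subunit of the chloroplast signal recognition particle, had the largest SD on that scale, at 71.4 ± 6.56 FPKM, and CPFTSY, its receptor, was lowest at 11.9 ± 0.589. LHCA6 lay between GDC1 (68.2 FPKM), which guides antenna proteins to that particle, and CPSRP54 (42.0 FPKM), its other subunit, and so did LHCA5. The 5 loci listed for assembly of photosystem I had a median of 37.0 FPKM, from EDA3 (PSA2) at 70.3 ± 1.33 to PPD1 at 16.1 ± 1.62. The core mean exceeded all 5, where 99.8% of all loci were below it, with a median log2 difference of 6.43 for these loci and 8.33 over all loci. The other 3 were CEST (45.9 FPKM), AT1G22700 (37.0 FPKM) and PDE329 (32.0 FPKM).

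Photosystem II antenna genes spread over a wider range than the photosystem I core antenna. The core mean was above 4 of the 9 genes of the major antenna (LHCB1 to LHCB3), below 3 and not called against 2, where 99.8% of all loci were called below it and 0.185% above it. It was below CAB1 (LHCB1.3, 14284 FPKM), LHB1B2 (LHCB1.5, 11033 FPKM) and CAB3 (LHCB1.2, 4190 FPKM). It exceeded LHCB3 (3097 FPKM) by 0.083 (SE 0.072, limma adjusted p = 0.245) and LHB1B1 (LHCB1.4) by 0.092 (SE 0.071, limma adjusted p = 0.200), and LHCB2.3 (451 FPKM) by 2.86. Of the 6 minor antenna genes, the core mean was below LHCB5 (3908 FPKM) by 0.25 and above the other 5, from LHCB4.1 (1712 FPKM) to LHCB4.3 (3.96 FPKM), against the same 99.8% of all loci. LHCA5 and LHCA6 lay above LHCB7 (AT1G76570, 5.30 FPKM) and LHCB4.3 and below the other 13 of these 15 genes in mean FPKM. The LHCB1 genes are near copies of each other, so the split of reads among them is uncertain.

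**Figure D5:**
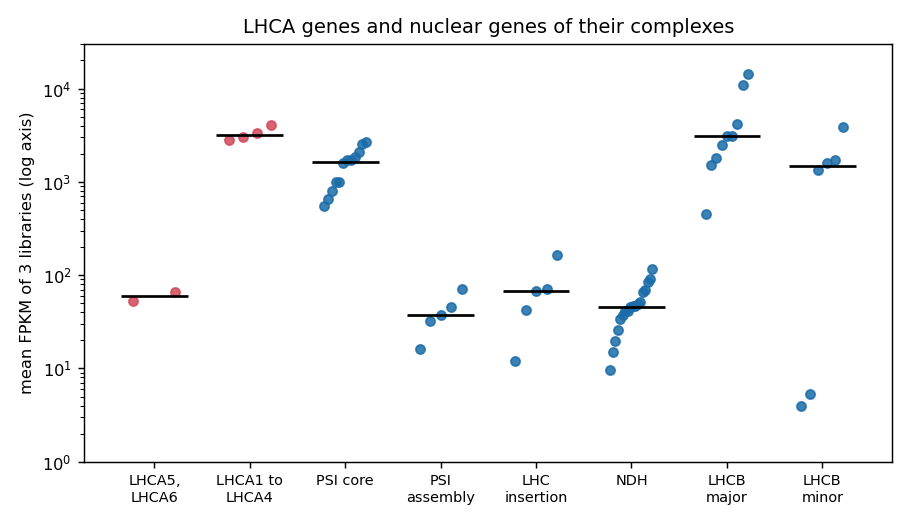
Mean FPKM over 3 libraries (log axis) of LHCA5 and LHCA6, of LHCA1 to LHCA4 (both red) and of nuclear genes listed for the photosystem I core (PSI core), its assembly, insertion of light-harvesting proteins (LHC insertion), NDH subunits and the photosystem II antenna (LHCB), with 1 point per gene and a line at each median. LHCA5 and LHCA6 lie at the level of the NDH, assembly and insertion genes, and LHCA1 to LHCA4 above the photosystem I core genes.

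The stretches before the annotated starts of 3 members are shown because LHCA1 and LHCA4 encode dimer partners with similar levels and LHCA5 lay far below both. They were read from TAIR10.1 over 250 bases before the outermost start, or up to the neighbouring gene AT3G54900 for LHCA1, at chr1:17179000-17179249 (LHCA5, plus strand), chr3:20341177-20341356 (LHCA1, minus strand) and chr3:17495034-17495283 (LHCA4, minus strand). Capitals mark the G-box CACGTG, the I-box GATAAG and the TATA box TATAAA on either strand, all known from light-regulated or TATA-type plant promoters.
LHCA5: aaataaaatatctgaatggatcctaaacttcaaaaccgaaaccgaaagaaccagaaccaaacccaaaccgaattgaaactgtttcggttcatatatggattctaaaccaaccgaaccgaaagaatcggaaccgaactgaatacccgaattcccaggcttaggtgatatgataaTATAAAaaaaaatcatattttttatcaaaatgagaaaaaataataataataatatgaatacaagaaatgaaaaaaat
LHCA1: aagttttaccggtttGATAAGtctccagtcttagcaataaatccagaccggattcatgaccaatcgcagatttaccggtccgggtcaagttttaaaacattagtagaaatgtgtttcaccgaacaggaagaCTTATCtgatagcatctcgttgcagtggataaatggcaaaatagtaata
LHCA4: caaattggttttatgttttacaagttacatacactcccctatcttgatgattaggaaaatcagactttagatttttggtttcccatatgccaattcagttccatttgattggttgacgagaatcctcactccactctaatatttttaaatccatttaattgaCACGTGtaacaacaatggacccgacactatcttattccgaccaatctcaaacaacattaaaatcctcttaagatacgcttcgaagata
The LHCA1 stretch holds 2 I-box matches, 165 and 49 bases before the start, and the LHCA4 stretch holds a G-box, 88 bases before it. The LHCA5 stretch holds a TATA box, 77 bases before the start. Over 250 bases, the G-box was found in 1 of the 6 members and in 6.5% of 27442 protein-coding genes, and the I-box in 1 of 6 and 12.3%. The core genes LHCA2 and LHCA3 had neither a G-box nor an I-box match, like LHCA5 and LHCA6. Whether such matches bear on the levels was not tested. The TATA box was found in 4 of 6 members and 47.4% of genes, the CCAAT box (CCAAT) in 5 of 6 and 46.0%, and the evening element (AAAATATCT) in 1 of 6, LHCA5, and 2.4%. No motif searched was in the windows of all 6 or of all 4 core genes, apart from CCAAT in the core genes. These are matches of letters, and 230 bases of the LHCA6 window belong to the gene AT1G19140 on the other strand. The LHCA3 window lies before form 3, which starts at chr1:22699715 and held 0.012% of the locus on average. Form 1 of LHCA3, with 99.4%, starts at chr1:22699893, so the TATA and CCAAT matches of LHCA3 do not directly precede it.

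Markers of green tissue and of other organs were both present in these whole-seedling libraries. RBCS1A, of the Rubisco small subunit, had 6896 FPKM, the root gene PYK10 1009, the epidermis gene PDF1 87.6 and the phloem gene SUC2 68.2, while the seed gene OLEO1 had 0.461 and the pollen gene VGD1 was listed at 0. The read depth is not stated. Many depths and fragment lengths were tried on low values of loci with 1 transcript. At the best setting of each library, 34.7% to 36.0% of the values were whole multiples of a read within 0.05. Chance gives 10% at 1 fixed setting, which is too low a measure for a share picked as the best. Most values were not whole multiples, so a count test or an interval for counting error was not made.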

How the data were processed

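Transcript levels of 3 wild-type seedling libraries were deposited as 1 value per transcript. The submitters' processing notes name TopHat2 2.0.9, Cufflinks 2.1.1 and the build TAIR10, with no role or order, and the deposited values were read as FPKM computed by the authors: they hold decimals, none is below 0, and library totals differ. No source used here gives the annotation, filters or scaling. No column went unused (0 other columns of samples).

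Of 36172 transcripts, 35337 carry a TAIR locus and were summed to 27374 loci. The other 835 were left out, except from the total of all transcripts. Log2(FPKM + 1) ratios of every locus to a member, or to the mean of LHCA1 to LHCA4, were fitted with limma 3.58.1 in R 4.3.3 (intercept model, empirical Bayes with trend) over 17868 loci with a mean of at least 1 FPKM, with Benjamini-Hochberg adjustment over the loci of each fit and a threshold of 0.05. The fit was also run on simulated data in which genes varied independently. The core genes deviated together here, so that run cannot vouch for the p-values of pairs of members. Folds on this scale slightly understate differences of low genes. Members and lists were chosen with earlier results of these data known. Named genes were all members and their transcripts, from each list the highest, the lowest, the one with the largest SD and those next to the members in level, and the 3 nearest loci by Euclidean distance; PSAK, AT2G04039, LHCB7 and the remaining assembly loci were added after their values were seen. Gene names, structures and sequences are from RefSeq TAIR10.1, which differs from TAIR10 in name; the files hold no coordinates. Second copies were sought with BLAST+ 2.17.0. Alternatives were pseudocounts of 0.1 and 5, other filters, the highest transcript per locus, the variances of both genes, rescaled libraries and leaving out each library.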

Additional observations from a re-analysis of the deposited data

How the results depend on the processing

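Libraries could not be paired between groups because there is only 1 group, but all differences between genes were taken within libraries. Of 153 values of the 17 differences under 9 alternatives, 149 kept their direction and their side of the threshold. The exception was LHCA4 minus LHCA1, which stayed at 0.17 but did not pass with no filter on low values (limma adjusted p = 0.0576) or with the variances of both genes (adjusted p = 0.0988); with 1 replicate left out it was 0.16 to 0.17 and passed only without replicate 1 (adjusted p = 0.00398). The causes were not tested. With the highest transcript in place of the sum, the mean of LHCA5 was 36.3 FPKM, and LHCA5 was above 5 and below 10 of the NDH genes, since form 1 was then left out. With a filter at 10 FPKM, the core mean was above 3 minor photosystem II antenna genes, since the other 2 were not tested. All other counts above or below stayed within 1.5 times, and all other levels within 1 SD, under rescaling and without each replicate. Depth is unknown, so what a listed 0 allows cannot be given.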
